A study of Mus musculus with 2 samples.

Results

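The genes described here are 10 nuclear-encoded subunits of cytochrome c oxidase, the terminal enzyme of the mitochondrial respiratory chain. They were chosen by identifier (Cox5a, Cox4i1, Cox5b, Cox6a1, Cox6b1, Cox6c, Cox7a2, Cox7b, Cox7c and Cox8a), and all 10 were among the 12530 mouse genes listed. Reads of ribosome profiling, a method that sequences the mRNA fragments covered by ribosomes, were counted per gene in spinal cord of mice heterozygous for the C201R allele of Gars and of wild-type mice. Gars encodes the enzyme that loads glycine onto its tRNA. Each genotype had 1 library, made from the combined lysates of 3 animals, so the libraries carry no spread between animals and no difference below has a replicate check or a p-value. The labels do not state the strain, age or sex of the animals.

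Gene reads summed to 3491159 in the Gars C201R/+ library and to 7770935 in the wild-type library. The intervals given below cover counting error only, at 95%, and compare the libraries, not the genotypes. No RNA library was analysed here, so the amount of an mRNA and its occupancy by ribosomes cannot be told apart, nor can fewer cells of a type and less RNA per cell. The identifiers of genes other than these 10 have no symbols in the tables used, so spinal cord markers, the mitochondrially encoded subunits and assembly factors were not analysed here.

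Cytochrome c oxidase (complex IV) takes electrons from cytochrome c, reduces oxygen to water and pumps protons across the inner mitochondrial membrane. Its catalytic core is encoded by mitochondrial DNA and made on mitochondrial ribosomes, whereas the subunits described here are made in the cytosol and imported, and each is present once in the assembled monomer. In human cells the nuclear subunits join the core in groups: the products of COX4I1 and COX5A with the first core subunit, those of COX5B, COX6C, COX7B, COX7C and COX8A around the second, and those of COX6A1, COX6B1 and COX7A2 with the third. Neurons depend strongly on oxidative phosphorylation, and recessive variants of human COX6A1 cause a form of Charcot-Marie-Tooth neuropathy, the disease group to which dominant GARS variants also belong. Transcription of many of these nuclear genes is known to depend on the factors GABP (NRF-2) and NRF-1.

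The subunit genes did not differ between the libraries as 1 block. With the Gars C201R/+ library set against the wild-type library, Cox5a was 1.62-fold higher and Cox5b was 2.24-fold lower, while Cox6a1, Cox6b1 and Cox8a were only 1.11-fold to 1.14-fold higher. Over both libraries, 9 of the subunit genes had at least 100 reads in sum. Of these, 5 were higher and 4 were lower, and Cox7b, among the lower, was within counting error of equal. The median log2 ratio of the 9 genes was 0.15, against -0.03 over the 9726 genes with at least 100 reads. Ratios are of reads scaled by the trimmed mean of M-values (TMM) over all mouse genes.

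Promoter sequences are shown for the members furthest apart, Cox5a and Cox5b, for Cox6a1, Cox6b1 and Cox8a, whose ratios were within counting error of each other, and for Cox7a2, whose ratio was nearly that of Cox4i1. They are RefSeq windows of GRCm38.p6 from 250 bases before to 50 bases after 1 start site per gene, written along the gene's strand. In 6 of the 8 genes with a window, that site is the outer end of the RefSeq gene record. In Cox5a it lies 3904 bases and in Cox7a2 11569 bases inside the record, and these are the members with a window that also list a predicted transcript. Which start is used in spinal cord was not measured. Capitals mark matches to CCGGAAG (GABP) or CGCANGCG (NRF-1) on either strand, and both letter strings were chosen with the ratios known. The windows lie at chr9:57520982-57521281 for Cox5a (plus strand), chr1:36691237-36691536 for Cox5b (plus), chr5:115348909-115349208 for Cox6a1 (minus), chr7:30626065-30626364 for Cox6b1 (minus), chr19:7217567-7217866 for Cox8a (minus) and chr9:79759804-79760103 for Cox7a2 (minus).
Cox5a: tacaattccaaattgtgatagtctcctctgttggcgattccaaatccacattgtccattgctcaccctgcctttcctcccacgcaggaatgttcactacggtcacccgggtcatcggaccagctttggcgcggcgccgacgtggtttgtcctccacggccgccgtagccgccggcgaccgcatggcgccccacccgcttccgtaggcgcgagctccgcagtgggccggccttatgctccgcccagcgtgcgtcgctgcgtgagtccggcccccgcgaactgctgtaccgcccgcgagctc
Cox5b: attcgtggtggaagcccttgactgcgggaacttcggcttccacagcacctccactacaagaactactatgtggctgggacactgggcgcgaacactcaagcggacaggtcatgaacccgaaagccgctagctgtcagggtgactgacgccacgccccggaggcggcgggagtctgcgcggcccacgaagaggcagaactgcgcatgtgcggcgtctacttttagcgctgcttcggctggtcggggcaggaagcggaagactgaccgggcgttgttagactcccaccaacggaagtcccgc
Cox6a1: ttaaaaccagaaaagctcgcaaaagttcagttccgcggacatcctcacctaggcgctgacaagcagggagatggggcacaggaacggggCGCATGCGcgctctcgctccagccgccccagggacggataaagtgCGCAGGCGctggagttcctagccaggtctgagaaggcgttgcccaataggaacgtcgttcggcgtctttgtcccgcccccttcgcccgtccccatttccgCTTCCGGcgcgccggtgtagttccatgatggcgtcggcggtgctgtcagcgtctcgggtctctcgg
Cox6b1: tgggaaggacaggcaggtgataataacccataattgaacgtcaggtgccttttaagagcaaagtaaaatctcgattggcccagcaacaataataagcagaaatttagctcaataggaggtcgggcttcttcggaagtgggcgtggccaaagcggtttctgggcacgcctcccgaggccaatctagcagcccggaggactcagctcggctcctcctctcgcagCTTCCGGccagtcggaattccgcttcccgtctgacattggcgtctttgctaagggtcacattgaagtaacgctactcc
Cox8a: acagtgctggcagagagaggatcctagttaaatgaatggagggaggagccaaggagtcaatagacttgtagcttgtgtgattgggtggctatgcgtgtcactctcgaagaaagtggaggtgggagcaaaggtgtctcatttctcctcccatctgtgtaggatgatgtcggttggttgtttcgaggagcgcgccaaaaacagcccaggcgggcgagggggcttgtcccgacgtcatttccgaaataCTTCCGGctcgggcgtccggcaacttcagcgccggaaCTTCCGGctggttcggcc
Cox7a2: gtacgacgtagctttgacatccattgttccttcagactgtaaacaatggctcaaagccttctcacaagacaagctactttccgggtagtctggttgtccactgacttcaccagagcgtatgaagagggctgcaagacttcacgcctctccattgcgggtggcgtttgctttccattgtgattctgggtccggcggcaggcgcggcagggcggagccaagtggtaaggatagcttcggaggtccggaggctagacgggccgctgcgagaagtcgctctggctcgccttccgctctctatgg

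Windows were present for 8 of the 10 genes, all but Cox4i1 and Cox6c. The GABP string was found in 3 of the 8, and these were Cox6a1, Cox6b1 and Cox8a. Over all 32851 windows of this length, 8.86% held it. Those are all such windows in the reference, not matched to the members in base composition or read number. The match began 16 bases before the start in Cox6a1 and 28 bases before it in Cox6b1. Cox8a had 2 matches, of which 1 began 5 bases before the start. Cox5a, Cox5b, Cox7a2, Cox7b and Cox7c had no match, which says only that these letters are not in these windows, and for Cox5a and Cox7a2 the windows are those inside the gene record. The NRF-1 string was found in 1 of the 8 windows, that of Cox6a1, at 161 and 116 bases before the start, against 8.21% of all windows; the first of these reads the same on both strands. Only these exact strings were searched, so close variants of them in any window are not marked. A match is a description of the letters, and binding was not measured. Whether the matches relate to the ratios was not tested.

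Per length of transcript, the subunit genes were among the most read genes of the spinal cord libraries. RPKM, the authors' deposited reads scaled to gene length and library total, had a median of 318 over the 9 genes in the Gars C201R/+ library and of 291 in the wild-type library, against 8.63 and 8.40 over all genes. Cox4i1 was the highest, at rank 15 of all genes in the Gars C201R/+ library and rank 8 in the wild-type library, and Cox6a1 followed at ranks 37 and 46. Of the 10 genes, 8 were among the 1000 highest in the Gars C201R/+ library and 9 in the wild-type library. Although the assembled enzyme holds the subunits in equal number, the RPKM of the 9 genes other than Cox7c spanned 38.2-fold from Cox4i1 to Cox5b in the Gars C201R/+ library and 24.7-fold in the wild-type library. Cox7c, with 4 reads in all, lay far below them. How reads that match several loci were counted is not given for any of these genes, including Cox5b. The part of such reads in the span was not tested.

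The order of the levels was similar in both libraries. From the top, the Gars C201R/+ library had Cox4i1, Cox6a1, Cox8a, Cox6b1, Cox5a, Cox6c, Cox7a2, Cox7b, Cox5b and Cox7c. In the wild-type library the same order held for 7 of the 10 genes, and Cox7a2 stood above Cox5a and Cox6c. Counting intervals of neighbours overlapped for Cox8a and Cox6b1 in both libraries and for Cox5a and Cox6c in the wild-type library. All other neighbours were separated by more than counting error. The lengths behind RPKM, between 503 and 1001 nt for these genes, were multiples of 3 for only 3 of the 10, so they are not lengths of coding sequence alone. RPKM therefore divides by untranslated bases as well, and the coding part of each mRNA was not measured here.

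**Figure D1:**
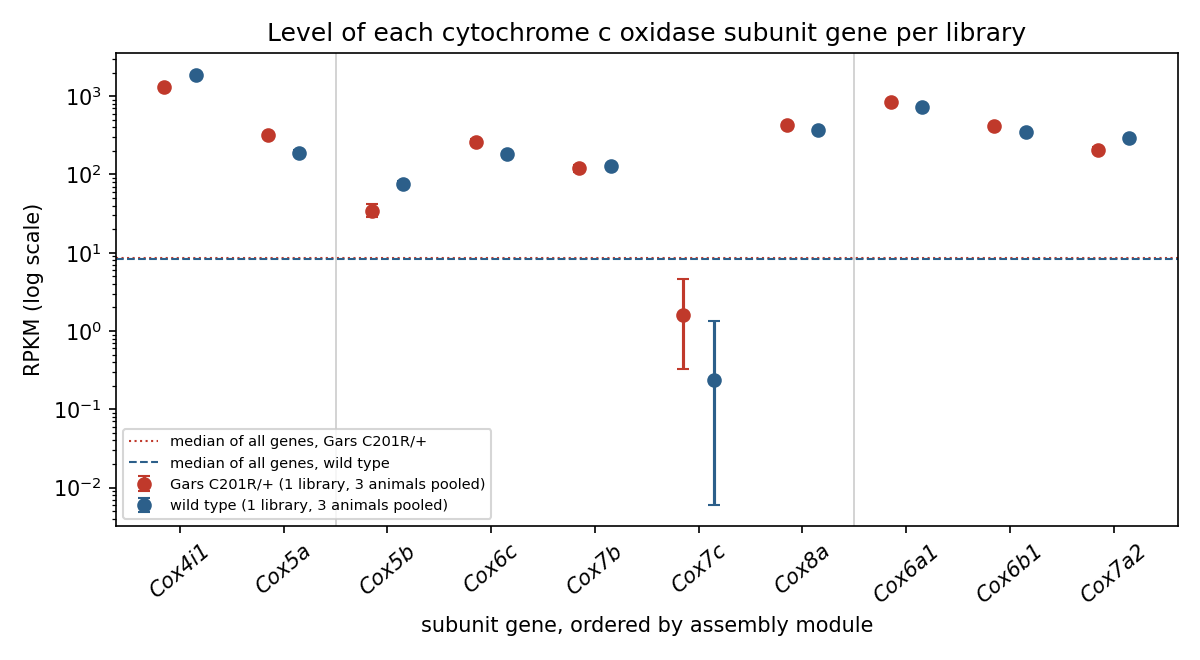
RPKM of the 10 subunit genes (log axis) in the Gars C201R/+ library and the wild-type library, grouped from left to right by the core subunit they join. Points are the deposited values of 1 library each, bars are 95% Poisson counting intervals, and horizontal lines are the medians of all genes; 9 genes lie above these lines and Cox7c lies below them.

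The 2 subunits that join the first core subunit differed in opposite directions. Cox4i1 (ENSMUSG00000031818, chromosome 8), which encodes the largest nuclear subunit and spans the membrane, had 3456 reads (interval 3342 to 3573) and an RPKM of 1318 in the Gars C201R/+ library, against 10778 reads (10576 to 10983) and an RPKM of 1857 in the wild-type library. It was therefore lower in the Gars C201R/+ library even after allowing for depth, with a log2 ratio of -0.54 (-0.60 to -0.48). Cox5a (ENSMUSG00000000088, chromosome 9), a matrix-side subunit that contacts subunit IV, had 723 reads (671 to 778) and an RPKM of 318 in the Gars C201R/+ library, against 956 reads (896 to 1019) and an RPKM of 190 in the wild-type library. Its log2 ratio was 0.70 (0.56 to 0.84), the highest of the 9 genes, and 532 of the 9726 tested genes had a higher one. The reads of Cox5a relative to those of Cox4i1 were 0.209 in the Gars C201R/+ library and 0.0887 in the wild-type library. This is a 2.36-fold difference (2.13 to 2.62) that no scaling of the libraries can change.

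Of the subunits that join the second core subunit, Cox5b stood apart. Cox5b (ENSMUSG00000061518, chromosome 1) encodes the zinc-binding subunit on the matrix side. It had 105 reads (85.9 to 127) and an RPKM of 34.5 in the Gars C201R/+ library, against 506 reads (463 to 552) and an RPKM of 75.1 in the wild-type library. The log2 ratio was -1.17 (-1.49 to -0.86), and 156 of the 9726 tested genes were lower. Its rank by RPKM was 2050 in the Gars C201R/+ library and 885 in the wild-type library. RefSeq lists a pseudogene of this gene, Cox5b-ps, on chromosome 13. Only pseudogenes that bear a member's symbol were looked for, so those under other names, of this or any other member, are not covered. The sources do not say how reads that match several loci were counted, and their part in the values was not tested.

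The other members of that group are small proteins with a single membrane span. Cox6c (ENSMUSG00000014313, chromosome 15) had 462 reads (421 to 506) and an RPKM of 261 in the Gars C201R/+ library, against 712 reads (661 to 766) and an RPKM of 182 in the wild-type library. With a log2 ratio of 0.48 (0.30 to 0.65), Cox6c was the second highest of the 9 genes. Cox8a (ENSMUSG00000035885, chromosome 19), the form of subunit VIII found in most tissues, had 825 reads (770 to 883) and an RPKM of 426 in the Gars C201R/+ library, against 1568 reads (1491 to 1648) and an RPKM of 366 in the wild-type library. The log2 ratio of Cox8a was 0.17 (0.05 to 0.30), a small difference with an interval just above equal. Cox7b (ENSMUSG00000031231), encoded on the X chromosome, had 420 reads (381 to 462) and an RPKM of 119 in the Gars C201R/+ library, against 1005 reads (944 to 1069) and an RPKM of 129 in the wild-type library. Its log2 ratio of -0.16 (-0.33 to 0.01) was the only one among the 9 whose interval held equal levels.

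Cox7c (ENSMUSG00000017778, chromosome 13) was nearly without reads in either library, unlike the other members. It had 3 reads (0.619 to 8.77) and an RPKM of 1.58 in the Gars C201R/+ library, against 1 read (0.0253 to 5.57) and an RPKM of 0.238 in the wild-type library. Its log2 ratio of 2.08 had an interval from -0.95 to 8.40, so no difference was detectable at this depth. Of the 12530 genes, 79 had 3 reads or fewer in the Gars C201R/+ library and 13 had 1 read in the wild-type library. The enzyme needs this subunit, and RefSeq lists a transcribed pseudogene that bears its name, Cox7c-ps1, on chromosome 17. Whether reads matching both loci were set aside is not given, and was not tested, so the value of Cox7c is not taken as the level of its mRNA.

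The subunits that join the third core subunit were close to equal in 2 of 3 cases. Cox6a1 (ENSMUSG00000041697, chromosome 5) encodes the form of subunit VIa found in most tissues. It had 1688 reads (1608 to 1770) and an RPKM of 840 in the Gars C201R/+ library. The wild-type library had 3254 reads (3143 to 3368) of this gene and an RPKM of 732. The log2 ratio of Cox6a1 was 0.15 (0.07 to 0.24). Cox6b1 (ENSMUSG00000036751, chromosome 7), a subunit on the intermembrane-space side, had 899 reads (841 to 960) and an RPKM of 413 in the Gars C201R/+ library, against 1688 reads (1608 to 1770) and an RPKM of 351 in the wild-type library, a log2 ratio of 0.19 (0.07 to 0.31). Cox7a2 (ENSMUSG00000032330, chromosome 9), the form of subunit VIIa found in most tissues, was lower. It had 477 reads (435 to 522) and an RPKM of 206 in the Gars C201R/+ library, against 1493 reads (1418 to 1571) and an RPKM of 291 in the wild-type library. Its log2 ratio of -0.55 (-0.70 to -0.40) was next to that of Cox4i1.

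By the rule used for calling a gene (at least 100 reads over both libraries, an interval that excludes equal levels and a ratio of at least 1.5-fold), 1 of the 9 tested subunit genes was called higher in the Gars C201R/+ library, namely Cox5a, against 8.14% of all tested genes. Likewise 1 was called lower, namely Cox5b, against 11.2% of all tested genes. Cox4i1 and Cox7a2 were 1.45-fold and 1.46-fold lower, just inside the limit. All 9 had 500 or more reads, and among the 4480 genes with that many reads 11.3% were called in either direction. Without a limit on size, the interval excluded equal levels for 8 of the 9 genes, 5 higher and 3 lower, against 51.9% of all tested genes and 62.5% of those with 500 or more reads. The counts of 1 higher and 1 lower among 9 genes lie near the shares of all tested genes. Against the 11.3% among genes with 500 or more reads, 2 of 9 is a larger share, but it rests on only 2 genes.

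**Figure D2:**
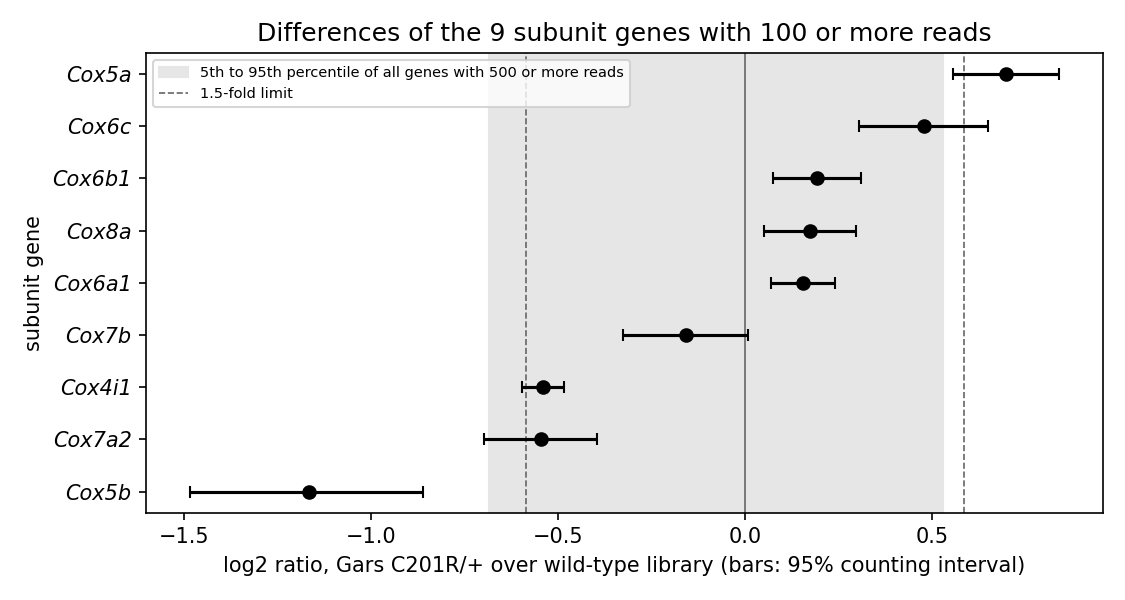
Log2 ratio of the Gars C201R/+ library over the wild-type library for the 9 subunit genes with 100 or more reads, with 95% counting intervals. The grey band spans the 5th to 95th percentile of genes with 500 or more reads (-0.69 to 0.53), and only Cox5a and Cox5b lie outside both the band and the dashed 1.5-fold limits.

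The spread among the subunit genes was larger than counting error. The 9 log2 ratios ranged from -1.17 to 0.70 with a robust SD (from the median absolute deviation) of 0.48, beside 0.44 over all tested genes and 0.36 over genes with 500 or more reads. Compared with each other, which needs no scaling, 32 of the 36 pairs of these genes differed in their ratio by more than the counting interval, and 20 did so by 1.5-fold or more. These are 88.9% and 55.6% of the pairs, against 61.5% and 26.3% of all pairs of the 4480 genes with 500 or more reads. Beyond that minimum the genes were not matched in read number, on which the width of the counting interval depends. Each gene enters 8 of the 36 pairs, and Cox5b is in 8 of the 20, so the pairs are not independent and the shares are a description. The widest pair was Cox5a and Cox5b: Cox5a had 6.89 reads for each read of Cox5b in the Gars C201R/+ library and 1.89 in the wild-type library, a 3.64-fold difference (2.89 to 4.59). The 4 pairs within counting error were the 3 among Cox6a1, Cox6b1 and Cox8a, with differences of 1.01-fold to 1.03-fold, and the pair of Cox4i1 and Cox7a2 at 1.00-fold (0.899 to 1.12). The interval of the Cox6b1 to Cox6a1 difference ran from 0.929 to 1.13. Pairs were compared after all ratios were known.

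**Figure D3:**
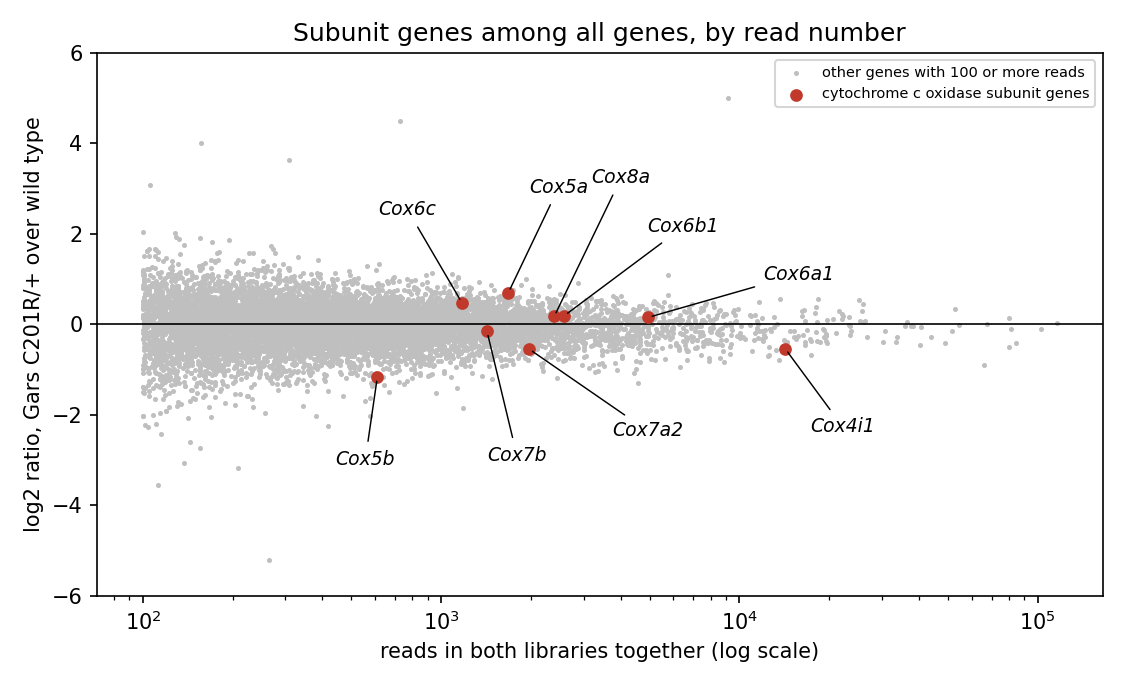
Log2 ratio of the Gars C201R/+ library over the wild-type library against the summed reads of both libraries (log axis), for all 9726 genes with at least 100 reads. The named points are the 9 subunit genes; Cox4i1 has the most reads and Cox5b the fewest and the lowest ratio.

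Among the 9 genes, the longer ones tended to have the lower ratio, with a Spearman correlation of -0.67 between length and ratio. Cox5b and Cox7b, the longest at 865 and 1001 nt, were both below equal, though the interval of Cox7b held equal levels. Cox6c, the shortest at 503 nt, was above equal. Cox5a and Cox7a2, of similar length at 645 and 659 nt, lay on opposite sides of equal. The correlation was not among the planned results, is over 9 genes read in the same 2 libraries and is a description. Over all tested genes it was -0.04. Read number showed no such relation among the 9 genes (Spearman 0.03).

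As a sum, the direction of the subunit reads rested on Cox4i1. The 10 genes together took 0.259% of the gene reads in the Gars C201R/+ library (Wilson interval 0.254% to 0.265%) and 0.283% in the wild-type library (0.279% to 0.286%), a log2 ratio of -0.18 (-0.21 to -0.14). Without Cox4i1 the sum was higher in the Gars C201R/+ library, at 0.160% of the gene reads against 0.144% in the wild-type library. The TMM-scaled log2 ratio of that sum was 0.10 (0.06 to 0.15). Cox4i1 took 38.2% of the subunit reads in the Gars C201R/+ library and 49.1% in the wild-type library. Cox5a took 7.98% in the Gars C201R/+ library and 4.35% in the wild-type library. For Cox5b the shares were 1.16% in the Gars C201R/+ library and 2.30% in the wild-type library.

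**Figure D4:**
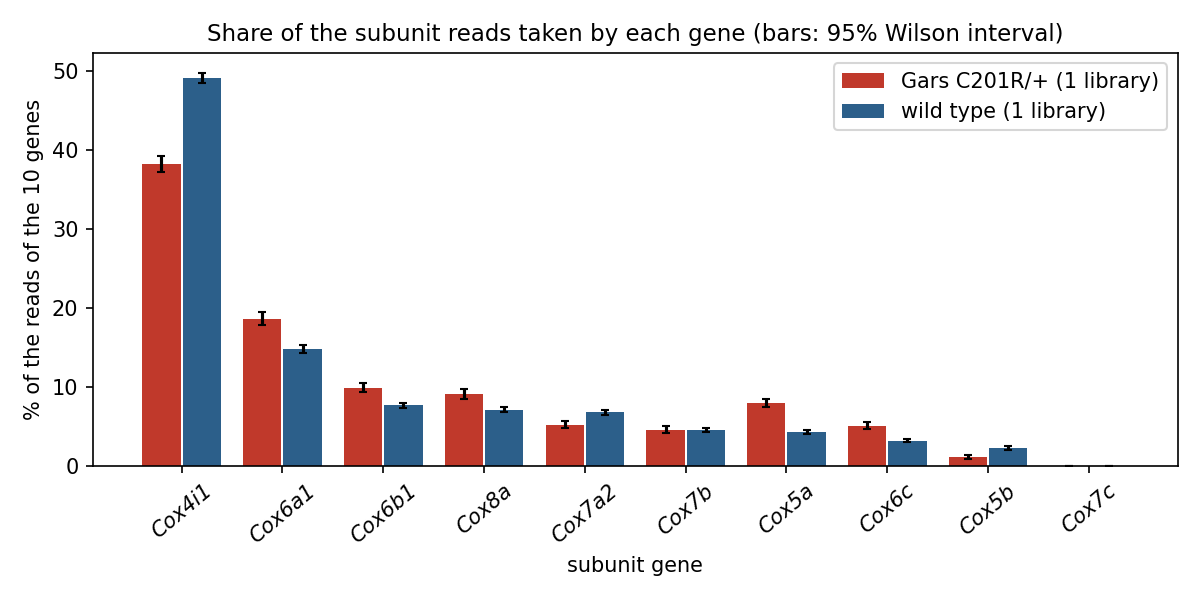
Share of the reads of the 10 subunit genes taken by each gene, in the Gars C201R/+ library and the wild-type library, with 95% Wilson intervals. Cox4i1 holds 38.2% in the Gars C201R/+ library and 49.1% in the wild-type library, and Cox7c is too low to see.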

How the data were processed

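Spinal cord lysates of 3 animals per genotype were pooled, and ribosome-protected fragments were made with RNase I and sequenced, per the labels' protocols. The submitters' processing notes name Bowtie 1.2.2, HTSeq 0.9.1 and build GRCm38. No source used here states the settings, annotation, strand or handling of reads with several matches. Per the file headers, each gene has a deposited count of reads and an RPKM made by the authors. Each RPKM was checked against the deposited count and gave a whole-number gene length, identical in both libraries.

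Counts of the 12530 genes, without the 18 ERCC spike-ins, were scaled with TMM in edgeR 4.0.16 (R 4.3.3). Log2 ratios used a prior count of 0.5, with exact conditional binomial intervals. Intervals of single counts are Poisson, of shares Wilson, and of differences between gene pairs large-sample intervals of the log odds ratio. Reads may not be independent molecules. DESeq2 1.42.0 size factors were an alternative. No genotype model was fitted, as 1 library per genotype leaves no degrees of freedom. The rule for calls was checked on simulated counts that held counting error only, so the check does not cover differences between animals or libraries of 1 genotype. None of the simulated differences lay close to the 1.5-fold limit, and TMM scaling was not part of the check. Python 3.11.15 with scipy 1.17.1 did the rest.

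All 10 members were named. Members and lists were chosen with earlier results of these data known. None of the deposited identifiers matched the reference table of 49997 genes; symbols of the members came with their identifiers, and lists of other respiratory genes and cell type markers were not used.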

Additional observations from a re-analysis of the deposited data

Results flagged for a closer look

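Reads of the ERCC spike-ins, which lie outside the mouse genes, made up 0.650% of the listed reads in the Gars C201R/+ library and 0.00669% in the wild-type library (22857 and 520 reads). They took no part in the scaling, and whether equal amounts were added is not given in the sources used here.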

How the results depend on the processing

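Apart from scaling to the spike-ins, Cox5a stayed between 0.66 and 0.75 and Cox5b between -1.19 and -1.11 on the log2 scale under the other scalings, the thinned wild-type library and no prior count, and 1 gene was called higher and 1 lower under each of these, under minimums of 20, 500 or no reads and under a 99% interval. Cox7c, with 4 reads in all, lay between 1.18 and 2.69. Scaling to the spike-ins shifts every gene by 1 factor. It turned Cox5a to -5.86 and put the median of the 9 genes at -6.40 (all tested genes at -6.58). With it, 0 subunit genes were called higher and 9 lower, against 0 higher and 9726 lower of all 9726 tested genes. A fold limit of 1.2 called 2 subunit genes higher and 3 lower, and a limit of 2 called 0 higher. Leaving out Cox4i1, chosen after seeing the data, turned the summed log2 ratio to 0.10. Over all genes, 792 were called higher and 1087 lower; a minimum of 20 reads gave 1321 higher, no minimum 1379 higher, a minimum of 500 reads 158 higher and 348 lower, a fold limit of 1.2 gave 1967 and 2380, and a limit of 2 gave 166 and 267. Total-count scaling gave 952 higher and 919 lower. Scaling by coding length and the alternatives for other gene lists were not run, because no protein table or symbols were at hand. No replicate could be left out. No paired analysis was possible because each genotype has 1 library.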
